A study of Rattus norvegicus with 74 samples.

Results

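The genes described here copy DNA and divide the cell. A list of 36 symbols named them, and 35 were found in the deposited tables by symbol, of 30560 genes in all; E2f1 is not analysed here. RNA was sequenced from red gastrocnemius, a hindlimb muscle (SM), from mitochondria isolated from that muscle by antibody capture and then digested with RNase-A and proteinase-K (MT), and from left ventricle (LV). The rats were wild-type male Wistar Kyoto animals, 9 weeks old at sampling, and all of them drank water with 8% deuterium oxide. Trained rats (ExT) began running at the age of 5 weeks and did 5 treadmill sessions a week for 4 weeks, of up to 60 min at 20 m/min. Sedentary rats (Sed) stood on a treadmill that was not moving, and sampling came 24 h after the final session. The labels name each library by its rat. Each of SM_Sed, SM_ExT, MT_Sed and MT_ExT held 15 libraries from 30 rats, and LV_Sed and LV_ExT held 7 each, from 14 of these rats.

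A dividing cell first loads the MCM helicase on its DNA and raises its supply of deoxynucleotides, then copies the genome in S phase, and then condenses and separates the chromosomes in mitosis under the control of cyclins and cyclin-dependent kinases. Muscle fibres and, after early postnatal life, most cardiomyocytes have left the cell cycle, so in these tissues the genes are mostly studied in satellite cells, endothelial cells, fibroblasts and immune cells. Many S phase genes are controlled by E2F factors, and many genes of mitosis by complexes that bind CHR and CCAAT elements in their promoters. In whole tissue, fewer dividing cells and less RNA per dividing cell cannot be told apart.

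RefSeq promoters (build GRCr8, 250 bases before to 50 after the gene start) were matched by symbol for 29 of the 35 genes and searched on both strands for the CHR letters TTTGAA, for CCAAT, and for 4 E2F letter strings, TTTCCCGC, TTTGGCGC, TTTCGCGC and TTTGCCGC. The CHR letters stood in 13 of 29 (44.8%, against 18.3% of 33469 promoters), CCAAT in 22 (75.9%, against 37.5%) and an E2F string in 7 (24.1%, against 2.14%). The 33469 were all RefSeq promoters of that length, not selected by gene class or expression. Matches are letters in a window and not measured binding, and matches of different motifs may share bases. The 4 promoters shown belong to genes that the results below turn on: Mki67 and Top2a, which varied together across rats, Cdk1, and the S phase gene Mcm6. Capitals mark every match, so that Mki67 (chr1:199952544-199952843, minus strand) and Top2a (chr10:84473044-84473343, minus strand) carry CHR and CCAAT letters, Mcm6 (chr13:42404303-42404602, minus strand) carries E2F and CCAAT letters, and Cdk1 (chr20:19265043-19265342, plus strand) carries all 3 kinds.
Mki67: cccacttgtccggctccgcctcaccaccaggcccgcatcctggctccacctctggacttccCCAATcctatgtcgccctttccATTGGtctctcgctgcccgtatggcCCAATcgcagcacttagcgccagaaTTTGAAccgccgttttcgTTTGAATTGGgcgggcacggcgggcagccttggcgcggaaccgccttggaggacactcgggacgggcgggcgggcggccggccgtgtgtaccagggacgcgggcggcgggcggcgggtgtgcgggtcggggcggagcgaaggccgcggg
Top2a: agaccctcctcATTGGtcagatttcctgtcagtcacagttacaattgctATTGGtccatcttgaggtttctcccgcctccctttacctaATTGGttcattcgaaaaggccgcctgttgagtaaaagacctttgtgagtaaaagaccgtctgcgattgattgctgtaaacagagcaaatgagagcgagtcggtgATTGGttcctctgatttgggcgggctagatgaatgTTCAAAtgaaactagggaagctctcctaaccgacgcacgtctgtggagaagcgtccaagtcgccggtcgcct
Cdk1: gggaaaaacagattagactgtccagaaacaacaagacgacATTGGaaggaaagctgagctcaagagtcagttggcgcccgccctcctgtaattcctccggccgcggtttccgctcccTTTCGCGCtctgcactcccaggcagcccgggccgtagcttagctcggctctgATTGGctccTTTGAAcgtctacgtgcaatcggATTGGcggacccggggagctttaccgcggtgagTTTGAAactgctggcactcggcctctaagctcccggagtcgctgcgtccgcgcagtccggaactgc
Mcm6: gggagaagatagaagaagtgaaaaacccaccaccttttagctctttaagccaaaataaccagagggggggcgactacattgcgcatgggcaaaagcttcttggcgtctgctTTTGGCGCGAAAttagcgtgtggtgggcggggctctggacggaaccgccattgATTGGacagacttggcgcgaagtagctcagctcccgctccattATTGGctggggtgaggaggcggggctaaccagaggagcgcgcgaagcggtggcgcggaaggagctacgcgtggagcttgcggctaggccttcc

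SM libraries held 19477976 to 39401323 counts, MT libraries 530397 to 9988027 and LV libraries 54645657 to 75758777. The 35 genes together received 2000 to 4319 counts per SM library, 781 to 2007 per MT library and 10071 to 14943 per LV library. Single genes in SM therefore rested on few counts, for example 3 to 16 per SM_Sed library for Cenpa, the centromeric histone H3 variant. Levels are given as CPM (counts divided by the TMM-scaled library size within one fit), and they are not corrected for gene length, so they are compared between groups and not between genes. The tissue labels were checked on defining markers: Myh6, a cardiac myosin heavy chain, averaged 15299 CPM in LV_Sed and 8.17 CPM in SM_Sed. Pax7, Myf5 and Myod1, which mark satellite cells and myoblasts, had 0 counts in every LV_Sed library.

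The first question was whether training changed these genes in gastrocnemius. None of the 34 genes tested passed an adjusted p of 0.05 in edgeR, and 28 of all 13570 genes tested did (0.206%). Without adjustment 2 genes had a p under 0.05, where 13.7% of all genes had, and DESeq2 also called none of the 34. The fold changes lay on both sides of 0, with 18 above and 16 below and a median of 0.01 on the log2 scale, against -0.01 over all genes. Cenpa was not tested because its counts were too low for the filter.

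The proliferation marker Mki67, a coat protein of mitotic chromosomes, had 5.42, 7.76 and 13.5 CPM as its lowest, median and highest level in SM_Sed, and 5.22, 7.88 and 17.9 CPM in SM_ExT. The arms overlapped, and the highest trained library, of rat 2, lay above every sedentary one. The log2 fold change was 0.02 (SE 0.15), with a 95% interval of -0.28 to 0.31. Top2a, the topoisomerase that untangles sister chromatids, ran from 1.52 through 2.84 to 6.59 CPM in SM_Sed and from 1.87 through 3.71 to 6.098 CPM in SM_ExT, with a log2 fold change of -0.01 (SE 0.18, 95% interval -0.36 to 0.34). These libraries also overlapped, and rats 23 (SM_Sed) and 2 (SM_ExT) stood highest among all SM libraries for 10 of the genes each. Rrm1, the large subunit of ribonucleotide reductase, averaged 21.2 CPM ± 2.11 in SM_Sed and 21.5 CPM ± 2.01 in SM_ExT (SD, n = 15 each). Its log2 fold change was 0.01, with an interval of -0.09 to 0.12.

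By role, the replication and nucleotide genes were mostly a little above 0 in trained muscle, and the cyclins and chromosome genes mostly below, without any of them passing the test. Of 11 replication and nucleotide genes 10 were above 0, with a median log2 fold change of 0.07. Mcm6, a subunit of the replicative helicase, had 1.63, 2.16 and 3.38 CPM in SM_Sed and 1.45, 2.72 and 3.64 CPM in SM_ExT (lowest, median, highest), a log2 fold change of 0.15 (SE 0.13). Pcna, the sliding clamp of DNA polymerases, had 6.54, 8.66 and 11.1 CPM in SM_Sed and 7.83, 9.21 and 10.6 CPM in SM_ExT, a log2 fold change of 0.06 (SE 0.07). For both genes the trained and sedentary libraries overlapped. Of 6 cyclin and Cdk1 genes 5 were below 0, with a median of -0.10, and of 9 tested genes of centromeres, spindle and chromosome structure 7 were below 0, with a median of -0.13. The 2 genes with an unadjusted p under 0.05 lay on opposite sides: the B-type cyclin Ccnb2 at -0.50 (SE 0.21, p = 0.0217, edgeR adjusted p 0.288) and thymidine kinase Tk1 at 0.28 (SE 0.13, p = 0.0347, adjusted p 0.327).

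The calls in muscle changed with the rats used. In rats 2 to 16 alone, edgeR called 2 of the genes higher with training, the checkpoint kinase Bub1 at 0.39 (adjusted p 0.0474) and Tk1 at 0.53 (adjusted p 0.0389), among 396 genes called of 13423 tested (2.95%). Beside that share the 2 calls do not set these genes apart. In rats 17 to 32 alone, none of the genes was called and 1 gene of all tested was, and the log2 fold changes were -0.04 for Bub1 and 0.05 for Tk1. Whether the training effect differed between the ranges was not tested, and the labels do not say what the ranges are.

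Genes of the same pathway outside the 35 gave no calls in trained muscle. Among further mitosis genes 33 of 43 tested were below 0, with a median of -0.09, where 7075 of all 13570 genes were. An unadjusted p under 0.05 was reached by 6 of the 43, all below 0. Over all genes 13.7% had such a p, and 865 of the 13570 had it below 0. Further replication and repair genes were below 0 in 23 of 39, G1 and E2F-RB genes in 8 of 20, and inhibitors of cyclin-dependent kinases and growth arrest genes in 9 of 17. The closest to the threshold, singled out after its values were seen, was Cdkn1a, which encodes the cell cycle inhibitor p21. It averaged 7.43 CPM ± 1.92 in SM_Sed and 5.17 CPM ± 1.204 in SM_ExT (SD, n = 15 each). Its fold change was -0.53 on the log2 scale (SE 0.13, adjusted p 0.0636 in edgeR). Markers of other cells had these values in the same fit, none of them called. Of the immune markers tested 8 of 8 were below 0 (median -0.35, 5 with an unadjusted p under 0.05). Fibroblast markers were below 0 in 6 of 6 (median -0.15, 0 with such a p). Endothelial markers were above 0 in 6 of 7 (median 0.16, 5 with such a p). Above 0 were also 4 of 4 pericyte and smooth muscle markers (median 0.24, 2 with an unadjusted p under 0.05) and 5 of 6 satellite cell and myoblast markers (median 0.12, 2 with such a p). The summed immune markers ranged from 44.6 to 155 CPM in SM_Sed and from 37.8 to 80.5 CPM in SM_ExT, and their part in the values of the cell cycle genes was not tested.

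In left ventricle the same comparison gave no called gene, but nearly all of the genes had lower values in trained rats. None of the 35 passed an adjusted p of 0.05 in edgeR, as did none of all 14488 genes tested (0%). DESeq2 called none of the 35 and 1 of all genes. Of the 35, 32 had a log2 fold change below 0, against 50.0% of all genes, and their median was -0.17, against 0.000071 over all genes. An unadjusted p under 0.05 was reached by 5 genes, all below 0, where 5.90% of all genes reached it and 2.49% did so below 0. Summed over the 35 genes, the level was 187 CPM ± 14.8 in LV_Sed and 167 CPM ± 16.5 in LV_ExT (SD, n = 7 each), where SM_Sed had 112 CPM ± 14.1 and SM_ExT 113 CPM ± 12.0 on the scale of muscle (n = 15 each). The trained and sedentary hearts overlapped for every one of the 35 genes (0.0207% of all genes did not overlap and were higher, and 0.0276% lower). The 35 genes were measured in the same rats, so the 32 are not independent observations. Leaving out each rat in turn kept 32 to 34 genes below 0, with medians from -0.27 (without LV_ExT rat 18) to -0.15 (without LV_Sed rat 31), and rats 17 to 32 alone gave 32 below 0 with a median of -0.19.

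**Figure D1:**
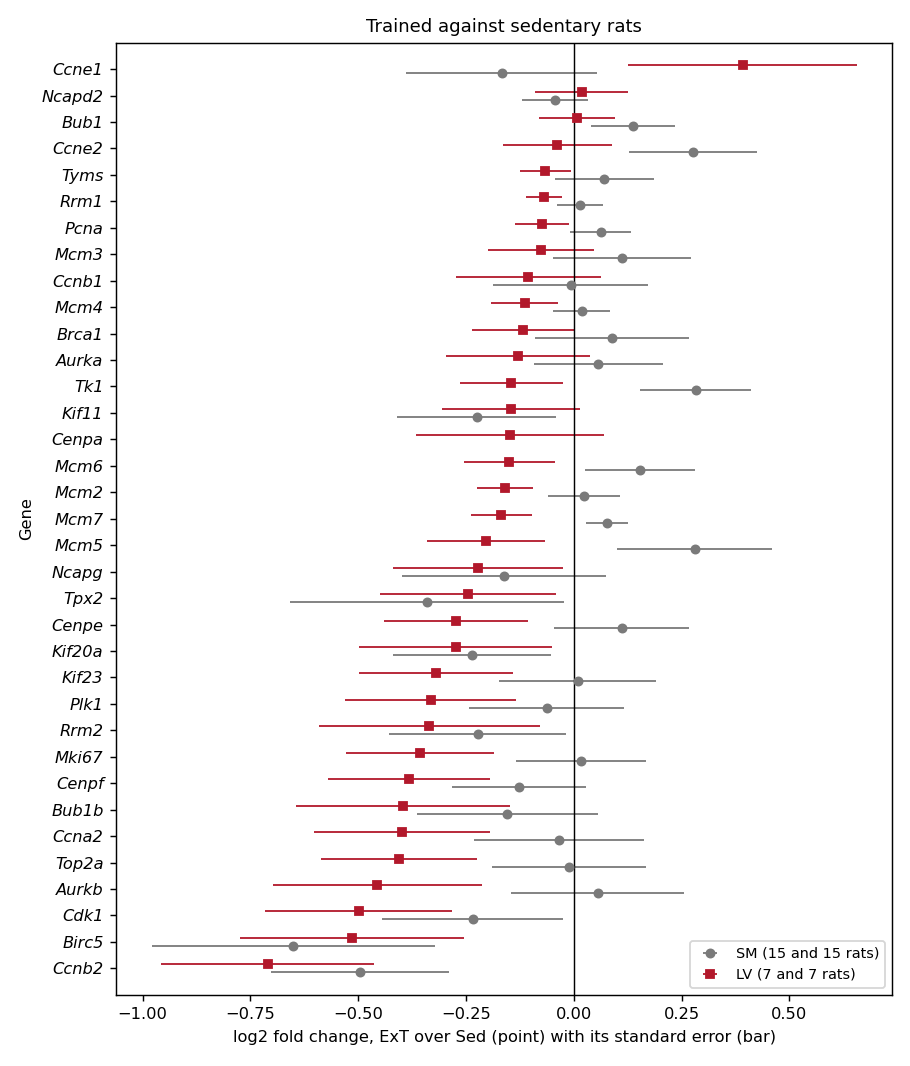
Log2 fold change of each gene between trained and sedentary rats (x axis, points) with its standard error (bars), in gastrocnemius (grey circles, 15 and 15 rats) and left ventricle (red squares, 7 and 7 rats). In left ventricle 32 of 35 points lie left of 0, whereas in gastrocnemius 16 of 34 do; none of the points passed the adjusted test.

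The most negative fold changes in trained hearts were among genes of mitosis. Ccnb2 had 0.702, 1.31 and 1.75 CPM as lowest, median and highest level in LV_Sed and 0.394, 0.875 and 1.18 CPM in LV_ExT, at -0.71 on the log2 scale (SE 0.25, p = 0.0101, adjusted p 0.804 in edgeR). The lowest sedentary library lay among the trained ones, so the groups overlapped. Cdk1, the kinase that drives entry into mitosis, had 1.24, 1.699 and 3.21 CPM in LV_Sed and 0.875, 1.300 and 1.90 CPM in LV_ExT, at -0.50 (SE 0.22, p = 0.0339, adjusted p 0.804 in edgeR). Top2a had 7.08, 9.19 and 11.2 CPM in LV_Sed and 4.06, 6.64 and 10.3 CPM in LV_ExT, at -0.41 (SE 0.18, p = 0.0412, adjusted p 0.804 in edgeR). Mki67 had 11.2, 14.5 and 19.5 CPM in LV_Sed and 8.195, 11.4 and 18.1 CPM in LV_ExT, at -0.36 (SE 0.17, p = 0.0559, adjusted p 0.804 in edgeR), so that it missed 0.05 before adjustment as well. In each of the 4 genes the trained rats were lower at the minimum, the median and the maximum, and the groups still overlapped. Birc5 (survivin) and Aurkb, both of the chromosomal passenger complex, were at -0.51 (SE 0.26) and -0.46 (SE 0.24).

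The replication genes in left ventricle were below 0 in all 11 cases but by less, with a median of -0.14. Mcm2 and Mcm7, both helicase subunits, were at -0.16 (SE 0.06, p = 0.0237) and -0.17 (SE 0.07, p = 0.0291) with an edgeR adjusted p of 0.804 each. Mcm6 had 4.13, 4.97 and 6.02 CPM in LV_Sed and 3.35, 4.76 and 5.699 CPM in LV_ExT, a log2 fold change of -0.15 (SE 0.11). Pcna had 17.7, 18.9 and 22.1 CPM in LV_Sed and 16.4, 18.2 and 20.95 CPM in LV_ExT, at -0.07 (SE 0.06). Rrm1 averaged 30.3 CPM ± 1.04 and 28.8 CPM ± 1.498 (SD, n = 7 each), at -0.07 (SE 0.04, 95% interval -0.15 to 0.01). All these groups overlapped. The genes above 0 were Ccne1, the E-type cyclin of the G1 to S transition, at 0.39 (SE 0.27), the condensin subunit Ncapd2 at 0.02 and Bub1 at 0.01.

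Single hearts carried the extremes. LV_ExT rats 14 and 25 held the lowest level of 10 and 12 of the 35 genes among all LV libraries, and LV_Sed rat 31, LV_ExT rat 18 and LV_Sed rat 29 held the highest level of 12, 10 and 8. The hearts with the most highest values thus came from both arms. Further mitosis genes were below 0 in 46 of 52 tested (median -0.21), and further replication and repair genes in 36 of 48 (median -0.08), none called. The G1 and E2F-RB genes were below 0 in 10 of 21 and the inhibitors and growth arrest genes in 6 of 16. Fibroblast markers were below 0 in 6 of 6 (median -0.16), immune markers in 8 of 8 (median -0.07) and cardiomyocyte markers in 0 of 6 (median 0.10). Endothelial markers were below 0 in 2 of 7 (median 0.03), pericyte and smooth muscle markers in 2 of 4 (median 0.08) and erythroid markers in 0 of 3 (median 0.31). Summed fibroblast markers ranged from 1877 to 3069 CPM in LV_Sed and from 1466 to 3314 CPM in LV_ExT, and their part in the values of the cell cycle genes was not tested.

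**Figure D2:**
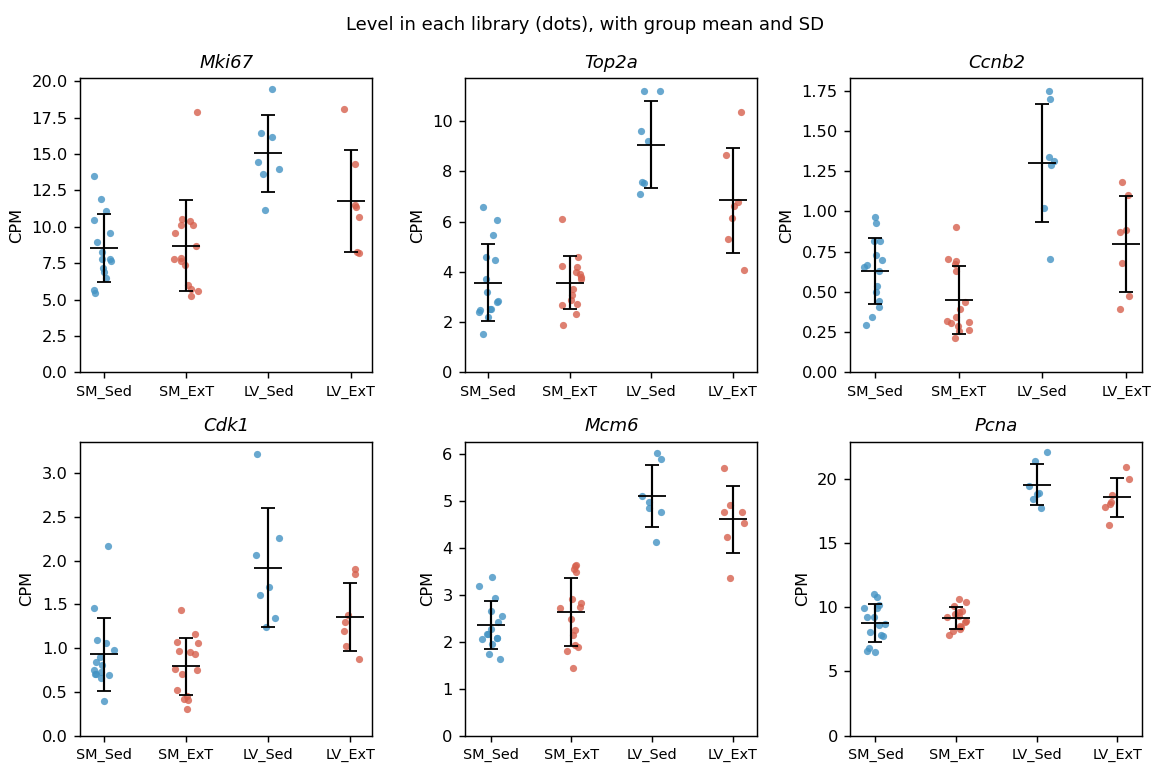
CPM of 6 genes in every library of gastrocnemius and left ventricle (dots), with the mean and SD of each group, for sedentary (blue) and trained (red) rats; SM and LV were scaled separately. Trained and sedentary libraries overlap in every panel, and the trained mean of Ccnb2 in LV is 0.798 CPM against 1.30 CPM in sedentary rats.

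Whether training acted differently on the 2 tissues was tested as an interaction in the 14 rats that gave both. None of the 35 genes was called in edgeR, and none of 15049 genes was (0%). DESeq2 called none of the 35 and 1 of all genes. The helicase subunits Mcm7 and Mcm6 and the kinetochore motor Cenpe had an unadjusted p under 0.05, at -0.23 (SE 0.10), -0.43 (SE 0.21) and -0.61 (SE 0.28), each lower in LV relative to SM (4.57% of all genes had such a p, and 1.85% in that direction). Below 0 were 29 of 35, against 47.3% of all genes, with a median of -0.25. With the rat as a block edgeR again called none, and 7 of the 35 had an unadjusted p under 0.05, against 547 of all 15049 genes. The test thus showed no difference between the tissues for any single gene, with intervals as wide as -1.22 to 0.05 for Top2a and -0.86 to 0.11 for Mki67. In MT, where training was compared in the same way, none of 35 genes and none of 19281 was called (0%), and 1 gene, Tyms, had an unadjusted p under 0.05, where 4.73% of all genes had (log2 fold change 0.27, SE 0.13).

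Some pairs of the genes varied together across rats, and Mki67 with Top2a was the first pair compared. In the 14 left ventricles, Mki67 and Top2a had Pearson's r of 0.959 and Spearman's rho of 0.969 (two-sided permutation tests on log2(CPM + 0.5), adjusted p 4.0e-05 for each, from the smallest p that 100000 resamples can give, 1e-05). Without the 2 rats farthest from the median of Mki67, r was 0.942. In the 30 gastrocnemius libraries r was 0.768 and rho 0.776 (permutation adjusted p 4.0e-05 each), and r was 0.692 without the 2 farthest rats. This relation held within rats 2 to 16 (r = 0.804, n = 14) and within rats 17 to 32 (r = 0.773, n = 16).

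Mki67 was also set against 2 genes of replication. With Mcm6 in SM, r was 0.587 and rho 0.556 (permutation adjusted p 0.00195 and 0.00453), and r was 0.550 without the 2 farthest rats, 0.608 in rats 2 to 16 and 0.567 in rats 17 to 32. With Mcm6 in LV, r was 0.552 and rho 0.679 (permutation adjusted p 0.0525 and 0.0190), and r was 0.702 without the 2 farthest. With Pcna, r was 0.297 in SM (permutation adjusted p 0.126, rho 0.293) and 0.155 without the 2 farthest rats, and within the ranges it was 0.445 and 0.162. In LV it was 0.634 (adjusted p 0.0293, rho 0.508 with adjusted p 0.0889), and 0.788 without the 2 farthest. Whether these correlations differ from those with Top2a was not tested. Only 2 LV libraries came from rats 2 to 16, too few for a value within that range.

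Heart and muscle of the same rat were compared over the 14 animals. Mki67 in SM and in LV had r of 0.589 and rho of 0.596 (two-sided permutation, adjusted p 0.0446 and 0.0426), and r of 0.646 without the 2 farthest rats. Scaled by library totals alone r was 0.498 with an unadjusted permutation p of 0.0708. Top2a had r of 0.301 between the tissues (rho 0.279, permutation adjusted p 0.297 and 0.332), and 0.272 without the 2 farthest rats. The adjusted values are over 8 relations.

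**Figure D3:**
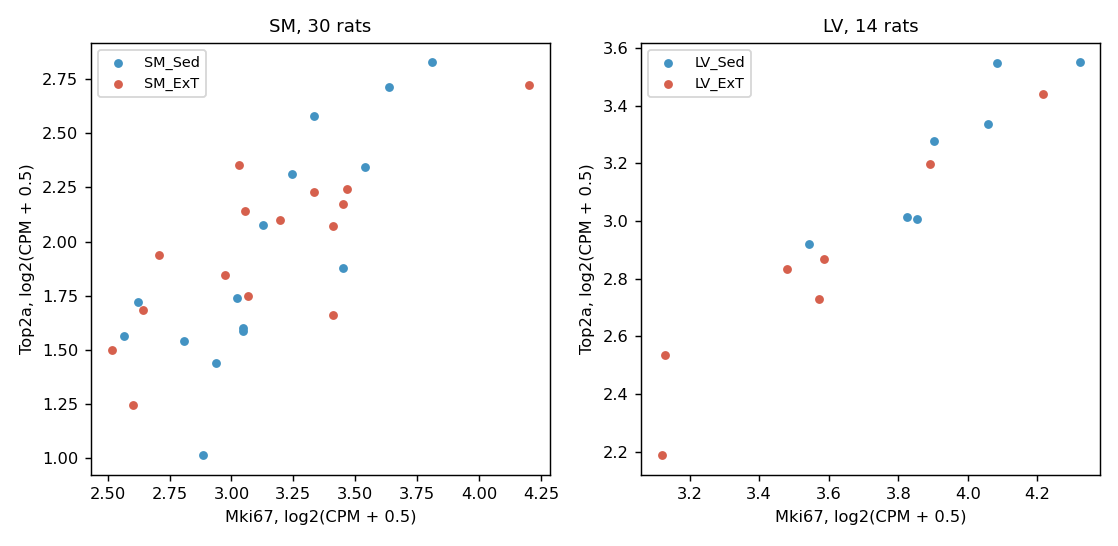
Mki67 (x axis) against Top2a (y axis) on the log2(CPM + 0.5) scale, one dot per rat, in gastrocnemius (left, 30 rats) and left ventricle (right, 14 rats), blue for sedentary and red for trained. Both panels show a rising band that holds rats of both arms, with r of 0.768 in gastrocnemius and 0.959 in left ventricle.

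The next comparison set left ventricle against gastrocnemius of the same 7 sedentary rats and of the same 7 trained rats. In sedentary rats 28 of the 35 genes were higher in LV and 3 were lower, while 78.7% of all 14367 genes tested were called (40.0% higher and 38.6% lower). The median log2 fold change of the 35 was 0.78, against 0.04 over all genes. In trained rats 20 were higher and 4 lower, where 79.3% of 14338 genes were called (39.7% higher and 39.5% lower), with a median of 0.51 against 0.01. Called in both arms were 20 higher and 3 lower, 9 in one arm only, and 3 in neither; the change between arms is the interaction reported above, which called none. The kit and the RNA input (100 ng for LV, 50 ng for SM) differed with the tissue and cannot be told apart from it. With library totals in place of TMM the median of all genes moved to 0.28 and 0.21, all genes called split into 7226 higher and 4296 lower in sedentary rats (5750 and 5551 with TMM) and 6811 and 4549 in trained rats (5697 and 5666 with TMM), and 28 and 23 of the 35 genes were higher and 2 lower in each arm.

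Tyms had the largest difference between heart and muscle in both arms, and the members of each role differed among themselves. It encodes thymidylate synthase, which makes the thymine nucleotide for DNA, and had 2.26, 3.09 and 3.77 CPM in SM_Sed and 16.4, 17.9 and 19.5 CPM in LV_Sed (lowest, median, highest), a log2 fold change of 2.54 (SE 0.09). Mcm5, a helicase subunit, had 0.739, 1.11 and 1.36 CPM in SM_Sed and 2.58, 4.04 and 5.299 CPM in LV_Sed, at 1.88 (SE 0.16). No heart library reached down to a muscle library in either gene. Ncapg, a condensin subunit, was at 1.66 (SE 0.27), Top2a at 1.36 (SE 0.23) and Brca1, a DNA repair gene, at 1.26 (SE 0.22), and none of the 3 overlapped between the tissues. Among genes higher in heart, trained rats had the same first 3, Tyms at 2.24 (SE 0.11), Mcm5 at 1.48 (SE 0.16) and Ncapg at 1.43 (SE 0.21), followed by Cenpa at 1.29 (SE 0.32) and the cyclin Ccnb1 at 1.10 (SE 0.22). The groups did not overlap for 12 genes higher and 1 lower in LV in sedentary rats (27.9% and 28.1% of all genes) and for 8 and 1 in trained rats (27.9% and 29.1%).

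The general proliferation genes lay between these and no difference. Mki67 had 5.75, 8.19 and 11.7 CPM in SM_Sed and 10.5, 13.4 and 17.9 CPM in LV_Sed. The tissues overlapped, and the gene was called higher at 0.72 (SE 0.14) in sedentary rats and was at 0.33 (SE 0.19, edgeR adjusted p 0.124) in trained rats. Pcna was at 0.96 (SE 0.10) and 0.89 (SE 0.07) in the 2 arms, Mcm6 at 0.97 (SE 0.15) and 0.51 (SE 0.14), and Rrm1 at 0.30 (SE 0.06) and 0.28 (SE 0.06), all 3 called higher in both. The smallest called fold changes in sedentary rats, apart from the 3 genes called lower, were Rrm1 and Tk1 at 0.31 (SE 0.12), and Tk1 lost its call when any one of rats 16, 19, 29 and 31 was left out (log2 fold change 0.27 to 0.30). Leaving out single rats also ended the call of Aurkb (rat 19, 29, 30 or 31, 0.44 to 0.70), Cenpa (rat 29, 0.58) and Rrm2 (rat 29, 0.58) in sedentary rats, and of Cdk1 (rat 25 or 27, 0.59 each), Ccnb2 (rat 14, 17 or 27, 0.57 to 0.70) and Kif23 (rat 27 or 28, 0.55 and 0.59) in trained rats.

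The 3 genes lower in heart in both arms were Tpx2, Mcm7 and Bub1. The helicase subunit Mcm7, which overlaps the microRNA genes Mir25, Mir93 and Mir106b in the RefSeq table, had 12.7, 13.5 and 15.6 CPM in SM_Sed and 8.45, 9.16 and 10.3 CPM in LV_Sed, a log2 fold change of -0.58 (SE 0.07), and -0.83 (SE 0.08) in trained rats. It was the only one of the 35 that was lower in LV without overlap, and the other 5 subunits of the same helicase were called higher in both arms. Bub1 was at -0.29 (SE 0.12) and -0.30 (SE 0.12), and this call was lost with library totals (-0.05 and -0.10), without a filter on low counts, and when some single rats were left out (rats 19, 20, 31 or 32 in sedentary and 17, 18, 25 or 27 in trained rats, with log2 fold changes from -0.30 to -0.20); with the rat as a block it was also lost in sedentary rats (-0.27). The mitotic kinase Plk1 was called lower in trained rats only, at -0.60 (SE 0.24), and lost that call with the rat as a block (-0.59), with library totals (-0.40), without a filter on low counts (-0.56), and without rat 18, 25, 26 or 28 (-0.58 to -0.45).

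Tpx2, which organises spindle microtubules, varied widely between muscles. In SM it spanned 2.37 to 22.5 CPM in sedentary rats and 2.02 to 13.02 CPM in trained rats, with a coefficient of variation of 72.3%, the highest of the 35 genes in SM_Sed, where the median gene had 31.8%. LV against SM it was at -1.16 (SE 0.35) in sedentary and -1.82 (SE 0.36) in trained rats. Across the 30 SM libraries Tpx2 did not follow Mki67 (r = 0.0304, rho = 0.0612, permutation adjusted p 0.874 and 0.748; r = 0.0370 without the 2 farthest rats). In the RefSeq table Tpx2 is followed by a lncRNA gene and then by Mylk2, the myosin light chain kinase of skeletal muscle. Mylk2 averaged 383 CPM in SM_Sed and 0.0268 CPM in LV_Sed, and across the SM libraries Tpx2 and Mylk2 had r of 0.729 and rho of 0.698 (permutation adjusted p 1.0e-04 and 6.7e-05; r = 0.652 without the 2 farthest rats, 0.775 in rats 2 to 16 and 0.715 in rats 17 to 32). These 2 relations were chosen after the values were seen and are adjusted together with the other 8. Whether counts of one gene reached the other was not tested, and Tpx2 is uncertain in SM. A protein-coding gene overlaps 7 of the 35 genes in the RefSeq table: Ccne2, Aurka, Plk1, Kif11, Kif20a, Ncapg and Rrm2. The strand setting of the counting is not given in the sources used here, so the values of those 7 genes carry the same uncertainty.

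**Figure D4:**
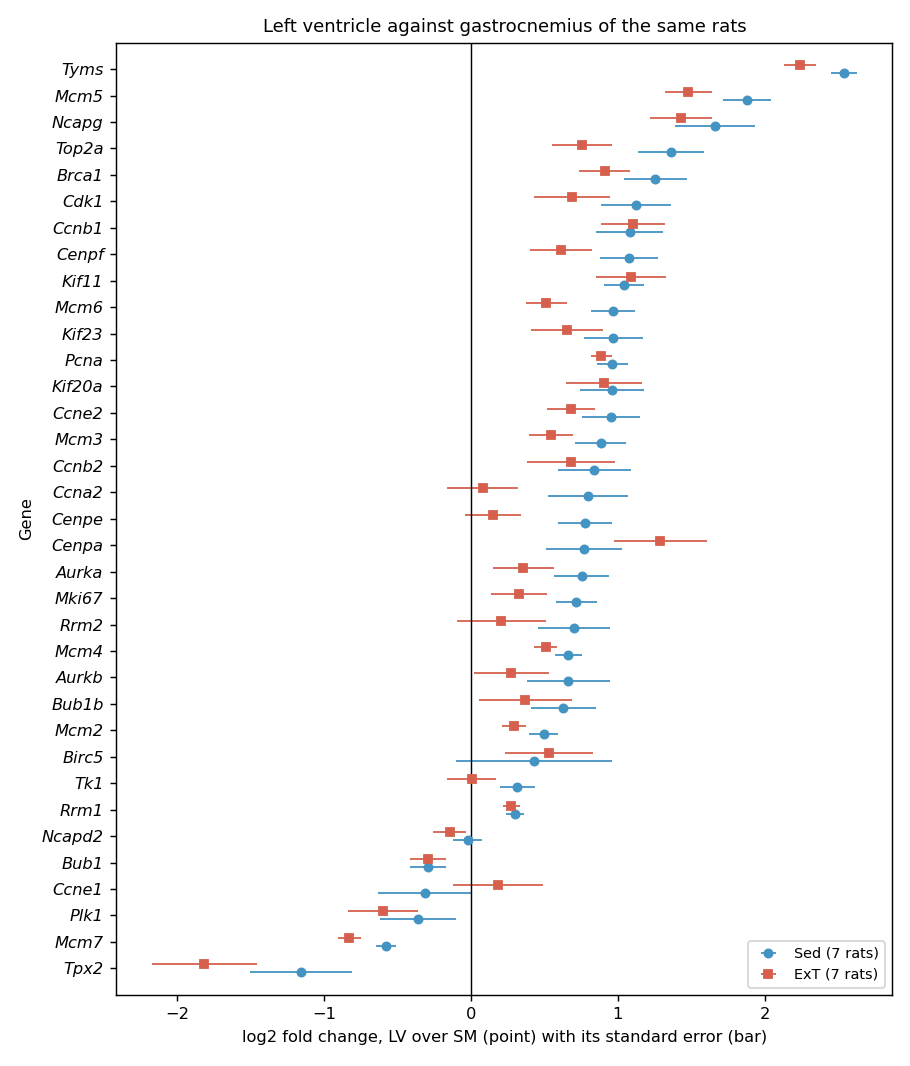
Log2 fold change of left ventricle over gastrocnemius (x axis, points) with its standard error (bars), for each gene in sedentary (blue circles) and trained (red squares) rats, ordered by the sedentary value. Tyms lies farthest right at 2.54 and 2.24, and Tpx2 and Mcm7 lie farthest left in both arms.

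Other genes of the pathway differed between heart and muscle in both directions. Of 51 further mitosis genes tested in sedentary rats 31 were higher and 6 lower in LV, and of 46 replication and repair genes 23 were higher and 8 lower. Cenph, a kinetochore protein, averaged 3.17 CPM in LV_Sed and 0.226 CPM in SM_Sed (log2 fold change 3.80, SE 0.23), and Mcm10, a replication initiation factor, 3.21 and 0.251 CPM (3.67, SE 0.29). The citron kinase gene Cit was among the 6 lower ones, at 1.89 CPM in LV_Sed and 20.5 CPM in SM_Sed (-3.43, SE 0.17), as was the separase gene Espl1 (-3.31, SE 0.19). The G1 and E2F-RB list was mixed, with 9 of 21 higher and 8 lower. In it Ccnd2, a D-type cyclin, averaged 253 CPM in LV_Sed and 17.2 CPM in SM_Sed (3.88, SE 0.13), and Myc was lower (-2.13, SE 0.22).

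Inhibitors of the cell cycle differed between heart and muscle in both directions. Of 17 inhibitors and growth arrest genes tested in sedentary rats 5 were higher and 8 lower, beside 40.0% higher and 38.6% lower over all genes. Cdkn1c, which encodes p57, averaged 1.28 CPM in LV_Sed and 13.4 CPM in SM_Sed (log2 fold change -3.38, SE 0.15), and Cdkn1b, which encodes p27, 6.60 and 33.1 CPM (-2.33, SE 0.08). The stress gene Gadd45a was higher in LV (0.91, SE 0.17), as was Cdkn1a, at 14.4 CPM in LV_Sed and 7.785 CPM in SM_Sed (0.88, SE 0.17), again chosen after its values were seen. Trained rats gave 4 higher and 7 lower of 16, with Cdkn1c at -3.05 (SE 0.11) and Cdkn1b at -2.45 (SE 0.07). Markers of other cells differed too, beside the 40.0% higher and 38.6% lower over all genes. In sedentary rats 6 of 8 immune and 4 of 6 fibroblast markers tested were called higher in LV, and 6 of 6 satellite cell markers lower. Endothelial markers were called higher in 4 of 7 and lower in 1, and pericyte and smooth muscle markers higher in 2 of 4 and lower in 2. Of the fibroblast markers 2 were below 0, 1 of them called lower, and the lowest log2 fold change was -3.58. Ptprc averaged 18.4 CPM in LV_Sed and 8.27 CPM in SM_Sed, and Pdgfra 107 and 28.3 CPM. The part of these cells in the values of the cell cycle genes was not tested.

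In the mitochondrial preparation nearly all of the genes took a larger share of counts than in whole muscle. In sedentary rats 30 of 35 were higher and 3 lower in MT, where 94.8% of 22842 genes tested were called (61.7% higher and 33.1% lower), and in trained rats 32 were higher and 3 lower, where 94.3% of 21312 were called (59.3% and 35.0%). Libraries did not overlap for 25 genes higher and 2 lower in sedentary rats (50.9% and 24.6% of all genes) and for 26 and 2 in trained rats (48.4% and 25.7%). Their median log2 fold change was 2.64 and 2.79, against 1.81 and 1.31 over all genes. This order turned round without the filter on low counts, when the median of the 35 genes was 2.49 and 2.62 and that of all genes 3.44 and 3.49, so the data do not set these genes apart from other genes in MT. The 2 kinds of library also differed in depth and in RNA input (10 ng for MT and 50 ng for SM), and mitochondrially encoded genes took 12.9% to 95.4% of the counts in MT libraries and 22.1% to 35.9% in SM libraries. When every library was thinned to the smallest total, only 8 of the 35 genes could be tested in sedentary and 2 in trained rats, of which 7 and 2 were called higher, where 47.3% of 7289 and 43.3% of 4976 genes tested were. At that total most of the 35 genes had few counts in SM, so they could pass the filter mainly through MT, where they are high. These calls therefore cannot serve as a check.

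Values on this contrast are given relative to the median of all genes that passed the filter. The helicase subunits differed among themselves: Mcm5 was 1.57 above that median in sedentary rats and Mcm3 0.99 above, whereas Mcm4 was -1.72 and Mcm7 -2.21 relative to it. The genes farthest above it were Cenpa (4.53, SE 0.16, or 2.72 relative to the median), the checkpoint kinase gene Bub1b (3.82, SE 0.16), Brca1 (3.75, SE 0.13), Birc5 (3.58, SE 0.26) and Ccne1 (3.52, SE 0.19). All 5 had few counts per SM_Sed library: 3 to 16 for Cenpa, 6 to 47 for Bub1b, 7 to 47 for Brca1, 0 to 28 for Birc5 and 2 to 23 for Ccne1. Cenpa did not pass the filter in the training comparison of SM. The order of these genes thus rests on muscle levels near the floor. Cenpa averaged 0.594 CPM ± 0.266 in SM_Sed and 13.95 CPM ± 2.03 in MT_Sed (SD, n = 15 each). In all, 22 genes lay above the median of all genes and 13 below in sedentary rats, and 27 and 8 in trained rats, a split that rests on the filter, as the medians above do.

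Pcna, Rrm1 and Mcm7 were lower in MT. Pcna had 10.4, 14.1 and 17.8 CPM in SM_Sed and 2.91, 4.53 and 6.41 CPM in MT_Sed (lowest, median, highest), a log2 fold change of -1.69 (SE 0.12). Rrm1 had 28.6, 35.1 and 40.1 CPM in SM_Sed and 9.09, 13.3 and 21.03 CPM in MT_Sed, at -1.35 (SE 0.09). Neither overlapped between the 2 kinds of library. Mcm7 was at -0.40 (SE 0.07). Their order held in trained rats, at -1.58 (SE 0.11), -1.33 (SE 0.09) and -0.48 (SE 0.09). The direction depended on the scaling. With library totals Mcm7 was called higher at 1.24 in sedentary and 1.14 in trained rats, while Rrm1, at 0.24 and 0.36, and Pcna, at -0.13 and -0.02, were no longer called in either direction, and the median of all genes was at 3.43 and 2.92, so all 3 stayed below that median. All genes called then split into 17616 higher and 2811 lower in sedentary rats (14086 and 7562 with TMM) and 15734 and 2458 in trained rats (12631 and 7461 with TMM), and 33 of the 35 genes were higher and none lower in each arm. With RLE scaling Mcm7 was at 0.00 and -0.10 and no longer called.

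**Figure D5:**
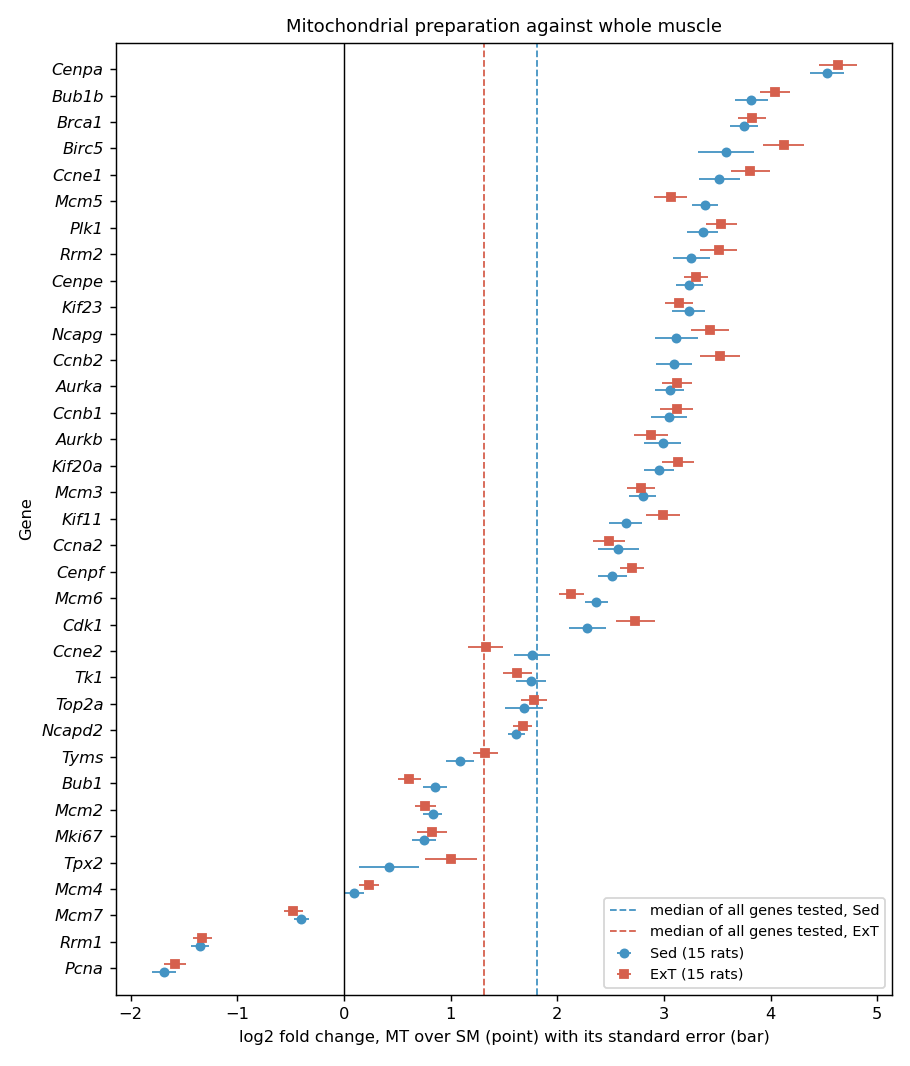
Log2 fold change of the mitochondrial preparation over whole gastrocnemius (x axis, points) with its standard error (bars) for each gene in sedentary (blue circles) and trained (red squares) rats, with dashed lines at the median of all genes tested, 1.81 and 1.31. Pcna, Rrm1 and Mcm7 lie left of 0 in both arms. Cenpa, which had only 3 to 16 counts per SM_Sed library, lies farthest right at 4.53 and 4.63.

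Of the genes outside the 35, 49 of 52 mitosis genes tested were called higher in MT in sedentary rats and 41 of 48 replication and repair genes, while inhibitors and growth arrest genes were called lower in 11 of 18 and higher in 4. Over all genes 61.7% were called higher and 33.1% lower. Of 1260 odorant and vomeronasal receptor genes, chosen as a gauge of background in MT, 850 passed the filter and 849 were called higher. Only 3 of them passed the filter in the training comparison of SM alone. Nearly all of the 850 therefore entered through MT, where they are high, so their calls and their median were largely fixed by the filter. Their median log2 fold change was 7.95, above that of each of the 35 genes (highest 4.53). Ccng1, which encodes cyclin G1, was lower, with means of 5.61 CPM in MT_Sed against 699.6 CPM in SM_Sed (-6.98, SE 0.11). Cdkn2a was higher, with 6.10 against 0.0517 CPM (6.55, SE 0.27), which is below the median of the receptor genes. The counts per gene behind these MT levels were small, 6 to 21 per MT_Sed library for Pcna and 26 to 52 for Cenpa.

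Rats 17 to 32 and rats 2 to 16 differed in muscle for 12.5% of 13828 genes tested with the arm as a covariate, and for 2 of the 35. Tyms was higher in rats 17 to 32, with 2.28, 3.15 and 4.23 CPM against 1.67, 2.66 and 3.37 CPM in rats 2 to 16 (lowest, median, highest), at 0.34 on the log2 scale (SE 0.10, adjusted p 0.0230 in edgeR). Mcm2 was lower, with 4.54, 5.80 and 7.22 CPM against 5.10, 6.72 and 9.12 CPM, at -0.25 (SE 0.07, adjusted p 0.0200), and it lost the call with library totals (-0.22), which also moved the split of all genes called from 786 higher and 938 lower to 879 and 645. The ranges overlapped for both genes, and a share of 2 in 35 is below that over all genes. In the G1 list Cdk6, a G1 kinase, was higher (0.29, SE 0.06) in rats 17 to 32, and none of 47 further mitosis genes was called by edgeR, with 7 of them at an unadjusted p under 0.05.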

How the data were processed

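Counts per gene, whole numbers, were deposited by the authors as 3 tables (SM, MT, LV) with Ensembl rat identifiers, symbols and biotypes. The submitters' processing notes name FastQC 0.74, cutadapt 4.6, STAR 2.7.11a, HTSeq and the build mRatBN7.2, without roles. The annotation and the strand setting of the counting are not given in the sources used here. Per the labels' protocols, SM and MT libraries were made with a Zymo ribosomal depletion kit and LV libraries with an Illumina Ribo-Zero kit.

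The 35 genes were taken by symbol, and the libraries were grouped by title. No column belonged to another sample, and replicate libraries of a group differed by more than counting noise (smallest chi-square per degree of freedom 1.23, in MT_ExT). Groups were compared with the quasi-likelihood test of edgeR 4.0.16 (R 4.3.3, limma 3.58.1) on the counts of the groups concerned, with TMM, filterByExpr and robust dispersions. P-values were adjusted by Benjamini-Hochberg over all genes tested and called under 0.05. Each SE was worked back from the test, as the absolute log2 fold change divided by the square root of its F statistic. The 95% intervals are the estimate plus or minus 1.96 SE, which is narrower than the test's own with few rats. The script was tested on simulated data. Alternatives were DESeq2 1.42.0, RLE or library totals, no filter, nuclear-encoded genes only, each rat range, thinning, the rat as a block, and leaving out each rat. Correlations used 100000 resamples in numpy 2.4.6, and exact enumeration for 7 rats.

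Libraries of one rat share the animal, so rat numbers pair tissues. Same-rat deviations correlated weakly (median r 0.0333 for SM and LV, 0.0168 for SM and MT; -0.0058 and -0.00079 for different rats). The genes, lists and tests were chosen with earlier results of these data known. Genes named are all those called in the training comparisons, Mki67, Top2a, Mcm6, Pcna and Rrm1, with up to 4 examples per further list. For LV against SM the 5 highest and 5 lowest called fold changes per arm were added. For MT against SM only the 5 highest in sedentary rats and the 3 genes called lower were. Others were named after their values were seen.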

Additional observations from a re-analysis of the deposited data

Results flagged for a closer look

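Among 70 gene and group combinations in left ventricle with 7 rats each, 5 held a rat whose gap to its nearest neighbour exceeded 0.568 of the group's range, where chance alone gives about 1 in 20. LV_ExT rat 18 was the highest trained heart in 4 of them: Kif20a at 3.43 CPM (next 2.16), Kif23 at 3.12 CPM (next 2.04), Brca1 at 3.17 CPM (next 2.45) and Birc5 at 0.793 CPM (next 0.456). LV_Sed rat 31 was highest for Aurkb at 2.06 CPM (next 1.19). Kif20a, Kif23, Birc5 and Aurkb act in the central spindle and in cytokinesis, whereas Brca1 is a DNA repair gene. The 5 flags among 70 are close to the rate of chance and 4 of them come from rat 18, so they show no shared function. Without LV_ExT rat 18, 34 of the 35 genes were below 0 in trained hearts, with a median log2 fold change of -0.27.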

How the results depend on the processing

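No training comparison in LV or MT and no interaction called any of the 35 genes under any alternative. In SM, rats 2 to 16 alone called 2. Counts over all genes in SM (28) were 131 with DESeq2, 396 in rats 2 to 16, 1 in rats 17 to 32, 45 with the range as a covariate, and 12 to 100 with 1 rat left out, highest without SM_Sed rats 23 (100), 29 (69) and 30 (46). DESeq2 called 1 gene in LV training and 1 in the interaction. Thinning MT and SM left 7 of the 35 genes called in sedentary and 2 in trained rats, with 6214 and 4109 of all genes. Only 8 and 2 of the 35 could then be tested. For MT against SM, Mcm7 reversed in sedentary rats with library totals (1.24), DESeq2 (0.0022, not called) and thinning (1.23) and in trained rats with library totals (1.14). Rrm1 changed sign with library totals (0.24 and 0.36, neither called) and thinning (0.13, not called, and 0.81, called). Library totals left 1 of the 2 genes called between rat ranges.

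With the rat as a replicate block, LV against SM called 30 of the 35 genes in sedentary and 24 in trained rats, and MT against SM called 34 and 35, all within 1.5 times of the unpaired counts. In the interaction the block gave 0 calls, and 7 of the 35 genes had an unadjusted p under 0.05 in edgeR (3 without the block). Among correlations, judged by unadjusted permutation p, Mki67 with Pcna in SM had p = 0.0487 with library totals (r = 0.362) and Mki67 between SM and LV had p = 0.0708 (r = 0.498). Within arms, an alternative chosen after seeing the data, unadjusted exact permutation tests in 7 rats did not pass for Mki67 with Mcm6 (r = 0.667 in sedentary and 0.354 in trained hearts), for Mki67 with Pcna (0.663 and 0.548), or for Mki67 between tissues in sedentary rats (0.641). The causes were not tested, except that thinning and single ranges or arms leave fewer counts or rats. Depth limits the lowest genes. Scaled by library totals alone, 3 counts equal 0.0761 to 0.154 CPM in SM and 0.30036 to 5.66 CPM in MT. These floors do not apply to the TMM-scaled levels in MT. On the TMM scale Mylk2 had 17 counts and 16.5 CPM in MT_ExT rat 2. In MT_ExT rat 10 it had 21 counts and 20.2 CPM. Intervals are for the fold change between groups, given the spread between the libraries compared. They do not give the range of single libraries.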
